A study of Mus musculus with 10 samples.

Results

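The genes described here are the 4 opioid receptor genes of the mouse (Oprm1, Oprd1, Oprk1 and Oprl1) and 2 of its tachykinin receptor genes (Tacr1 and Tacr3). They were taken by name from a table of 47632 gene rows, and all 6 were in it. Of these 6, 5 averaged 1 FPKM or more across all 10 libraries, as did 15905 genes in all. Tacr3 lay under that level. FPKM is the number of sequenced fragments of a gene scaled by the length of its transcript and by the total of mapped fragments. It allows for transcript length and sequencing depth, but this scaling alone does not make libraries comparable. Summed over all genes, FPKM ran from 1545170 to 2309120 over the 10 libraries. Results under other scalings are therefore given below.

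The libraries were made from striatal RNA of R6/2 hemizygous mice (5 libraries) and of isogenic wild-type mice (5 libraries, called control below), all taken at 11 weeks of age. The R6/2 line models Huntington's disease with a transgene: the start of human HTT, holding a lengthened run of CAG codons, is added to the intact mouse gene. It is therefore a model of a truncated protein rather than of the full-length one. The RNA is total RNA of a whole brain region, in which spiny projection neurons are mixed with interneurons, glia and vessels. Nothing in the labels ties the libraries to separate mice, so every p-value rests on the spread among these samples, part of which may be technical.

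Opioid receptors are G protein-coupled receptors that act through inhibitory Gi/o proteins: they lower cyclic AMP, open inwardly rectifying potassium channels and close calcium channels. Oprm1 encodes the mu receptor, the main target of morphine, Oprd1 the delta receptor, Oprk1 the kappa receptor and Oprl1 the nociceptin receptor, which does not bind the classical opioids. Enkephalins, from the precursor gene Penk, act on mu and delta receptors, dynorphins, from Pdyn, on kappa receptors, and nociceptin, from Pnoc, on the nociceptin receptor. Tachykinin receptors act through Gq/11 proteins, which raise intracellular calcium: Tacr1 encodes the NK1 receptor, preferred by substance P (from Tac1), and Tacr3 the NK3 receptor, preferred by neurokinin B (from Tac2). In the rodent striatum, enkephalin is made by indirect-pathway spiny neurons, and dynorphin and substance P by direct-pathway spiny neurons. Mu receptors are dense in patches called striosomes, and NK1 receptors are known from cholinergic interneurons and from interneurons that make somatostatin.

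The delta, kappa and NK1 receptor genes fell in R6/2 striatum by 3.62-fold to 4.00-fold, and the NK3 receptor gene fell less far from a low level. The mu receptor gene did not pass the test, and the nociceptin receptor gene, the only one of the 6 with a higher mean in R6/2, missed the threshold narrowly. Of the 5 genes tested, 3 fell and 0 rose, whereas 9.11% of all 15905 tested genes fell and 5.0% rose (limma on log2(FPKM + 1), R6/2 minus control, adjusted p under 0.05). These shares are also the background for every list count below from this main model, and no list was tested as a set. With the cortical signal described below in the model, 137 of the 15905 genes rose and 563 fell, against 795 and 1449 without it. List counts from that model are to be read against these smaller numbers, since calls were lost across all genes. In 3 of the 5 the R6/2 and control libraries did not overlap, against 13.1% of all tested genes. In bulk tissue, fewer cells of a type and less RNA per cell cannot be told apart, and this holds for every change given here.

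**Figure D1:**
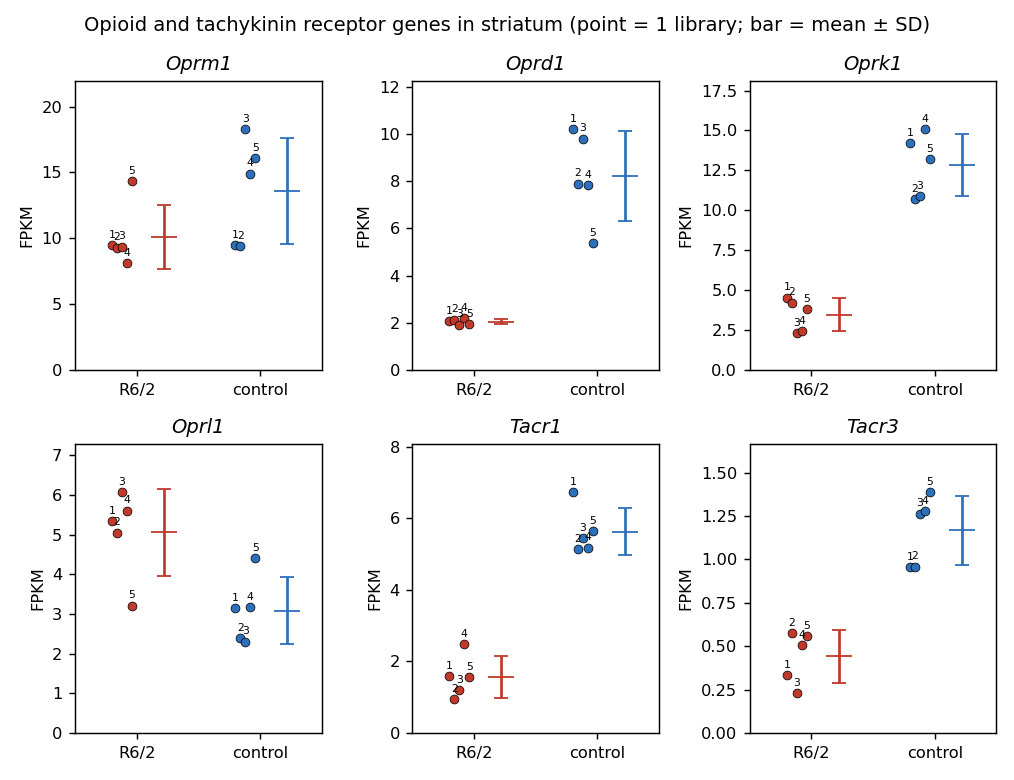
FPKM of the 6 receptor genes in each library (points, numbered by replicate) with mean ± SD of 5 libraries, R6/2 left and control right. Oprd1, Oprk1, Tacr1 and Tacr3 show no overlap between the groups, Oprm1 and Oprl1 do.

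The mu receptor gene Oprm1 (ENSMUSG00000000766.18) spans chr10:6758506-7038198 on the plus strand (GRCm38) and has 31 annotated transcripts, 17 of them coding. It stood at 9.48, 9.30, 9.37, 8.10 and 14.4 FPKM in R6/2 libraries 1 to 5, and at 9.46, 9.39, 18.3, 14.9 and 16.1 FPKM in control libraries 1 to 5. Library R6/2 5 lay well above the other R6/2 libraries, and controls 1 and 2 lay at the R6/2 level, so the groups overlapped. The means were 10.1 ± 2.43 FPKM in R6/2 and 13.6 ± 4.02 FPKM in control (SD, n = 5 each), a log2 change of -0.37 (SE 0.21, limma adjusted p = 0.291). The exons of Oprm1 share 96 of 8037 bases with Ipcef1, which lies on the opposite strand. No source used here gives the strand setting of the counting, so reads from those 96 bases could not be assigned. Ipcef1 averaged 7.51 ± 1.12 FPKM in R6/2 and 5.55 ± 1.85 FPKM in control, a log2 change of 0.41 that did not pass the test (limma adjusted p = 0.199). Gm10945, whose span crosses an Oprm1 intron, was listed at 0 in all 10 libraries.

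The delta receptor gene Oprd1 (ENSMUSG00000050511.1, chr4:132110726-132144486, minus strand) has 1 annotated transcript of 4021 bases. It stood at 2.06, 2.14, 1.93, 2.19 and 1.94 FPKM in R6/2, against 10.2, 7.90, 9.81, 7.83 and 5.39 FPKM in control. The R6/2 libraries were nearly equal, and the lowest control, library 5, was still above every one of them. The means of 2.05 ± 0.118 and 8.23 ± 1.92 FPKM gave a 4.00-fold lower level in R6/2, and a log2 change of -1.57 (SE 0.14, limma adjusted p = 0.000114). Values of a gene with a single transcript fall on steps of whole fragments, which allowed the fragments behind them to be recovered: 93, 48, 63, 65 and 56 in R6/2, against 333, 230, 325, 204 and 125 in control. The coefficient of variation of the R6/2 values, 5.75%, was below the counting error of 10.4% to 14.4% that such fragment numbers carry, so the closeness of the R6/2 libraries is more than this depth can resolve. The control values varied by 23.3%, above their counting error of 5.48% to 8.94%.

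The kappa receptor gene Oprk1 (ENSMUSG00000025905.13, chr1:5588466-5606131, plus strand) has 5 annotated transcripts, 3 of them coding. It stood at 4.55, 4.23, 2.33, 2.44 and 3.82 FPKM in R6/2, against 14.2, 10.7, 10.9, 15.1 and 13.2 FPKM in control. Libraries R6/2 3 and 4 were the lowest, and no R6/2 library came near the controls. The means were 3.47 ± 1.03 FPKM in R6/2 and 12.8 ± 1.95 FPKM in control, 3.69-fold lower in R6/2, with a log2 change of -1.65 (SE 0.17, limma adjusted p = 0.000236). Of all tested genes, 2.18% had a log2 change below that of Oprk1.

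The nociceptin receptor gene Oprl1 (ENSMUSG00000027584.16, chr2:181715016-181720985, plus strand) has 11 annotated transcripts, 6 of them coding. It stood at 5.34, 5.05, 6.07, 5.60 and 3.21 FPKM in R6/2, and at 3.14, 2.39, 2.30, 3.16 and 4.41 FPKM in control. Library 5 was the lowest of the R6/2 group and also the highest of the control group, and the overlap between the groups came from these 2 libraries. The means were 5.05 ± 1.10 and 3.08 ± 0.844 FPKM, a log2 change of 0.57 (SE 0.18) with an unadjusted p of 0.00933 and a limma adjusted p of 0.0603. Without library R6/2 5 the log2 change was 0.70 (limma adjusted p = 0.0205), and without control 5 it was 0.68 (limma adjusted p = 0.0275). It also passed the threshold after quantile normalization (0.60, adjusted p = 0.0485), after rescaling every library to the same protein-coding total (0.66, adjusted p = 0.0285) and with array weights (0.65, adjusted p = 0.0210), all with limma. Under the other 15 of 20 alternatives it was not called. Among these were a filter at 0.1 FPKM (limma adjusted p = 0.0885), replicate numbers as a block (0.182) and the cortical signal described below (0.464).

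The NK1 receptor gene Tacr1 (ENSMUSG00000030043.11, chr6:82402334-82560104, plus strand) has 3 annotated transcripts, 2 of them coding. It stood at 1.60, 0.944, 1.19, 2.48 and 1.57 FPKM in R6/2, against 6.74, 5.15, 5.44, 5.19 and 5.65 FPKM in control. Library R6/2 4 was the highest of its group, below every control. The means were 1.56 ± 0.584 FPKM in R6/2 and 5.63 ± 0.652 FPKM in control, 3.62-fold lower in R6/2, with a log2 change of -1.40 (SE 0.15, limma adjusted p = 0.000322).

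The NK3 receptor gene Tacr3 (ENSMUSG00000028172.5, chr3:134829007-134934579, plus strand) has 1 annotated transcript of 3762 bases. It stood at 0.333, 0.575, 0.230, 0.507 and 0.557 FPKM in R6/2, against 0.953, 0.958, 1.26, 1.28 and 1.39 FPKM in control, with no overlap. These values stand for 14, 12, 7, 14 and 15 fragments in R6/2, against 29, 26, 39, 31 and 30 in control. The exact Poisson 95% interval of the smallest number, 7, runs over 2.81 to 14.4 fragments and that of the largest, 39, over 27.7 to 53.3, and covers counting error only. The means were 0.440 ± 0.151 and 1.17 ± 0.200 FPKM, 2.65-fold lower in R6/2. Because Tacr3 lay under the level of 1 FPKM, it was tested among the 23650 genes that averaged 0.1 FPKM or more, of which 6.04% fell and 9.95% had groups that did not overlap. There its log2 change was -0.59 (SE 0.12, limma adjusted p = 0.0119), on a scale with 1 FPKM added that understates the change of so low a gene. With the cortical signal described below in the model, the log2 change was -0.58 and the limma adjusted p was 0.151. The remaining tachykinin receptor gene, Tacr2, was barely detected, with 11, 0, 2, 1 and 7 fragments in R6/2 and 3, 3, 2, 0 and 2 in control.

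The start regions of the genes that fell and had an entry among RefSeq promoter windows are shown beside that of Oprl1, to compare the DNA from which receptors that moved differently are transcribed. Entries were found for 5 of the 6 genes. Each window runs from 250 bases before to 50 bases after an annotated start (RefSeq, GRCm38.p6). Oprd1 is chr4:132144437-132144736 on the minus strand, Tacr1 chr6:82402225-82402524, Tacr3 chr3:134828757-134829056 and Oprl1 chr2:181714766-181715065, the last 3 on the plus strand. Capitals mark matches on either strand to the letters TGACG (a core of the cyclic AMP response element), to the E-box letters CACGTG and to the GC box letters GGGCGG. On the other strand TGACG reads CGTCA, and the GC box reads CCGCCC. The E-box reads the same on both strands, and the matches in these windows did not overlap.
Oprd1: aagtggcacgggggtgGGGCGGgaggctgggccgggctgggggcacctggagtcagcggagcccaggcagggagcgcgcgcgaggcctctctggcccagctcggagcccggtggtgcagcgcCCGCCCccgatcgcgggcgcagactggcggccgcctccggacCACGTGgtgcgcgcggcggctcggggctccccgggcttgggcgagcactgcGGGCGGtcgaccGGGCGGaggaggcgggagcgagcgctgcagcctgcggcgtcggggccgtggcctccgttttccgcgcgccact
Tacr1: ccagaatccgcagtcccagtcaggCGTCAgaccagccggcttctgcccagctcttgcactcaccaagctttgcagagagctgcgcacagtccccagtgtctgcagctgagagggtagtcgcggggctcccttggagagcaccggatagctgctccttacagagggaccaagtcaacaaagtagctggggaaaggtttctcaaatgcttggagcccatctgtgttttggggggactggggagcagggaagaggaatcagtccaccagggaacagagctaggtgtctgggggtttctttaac
Tacr3: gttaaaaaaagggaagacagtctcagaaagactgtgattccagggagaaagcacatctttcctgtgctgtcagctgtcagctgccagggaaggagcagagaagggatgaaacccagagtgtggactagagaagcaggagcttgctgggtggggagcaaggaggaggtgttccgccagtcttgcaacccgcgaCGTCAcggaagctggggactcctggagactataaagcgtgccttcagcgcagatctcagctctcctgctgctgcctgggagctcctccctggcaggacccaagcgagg
Oprl1: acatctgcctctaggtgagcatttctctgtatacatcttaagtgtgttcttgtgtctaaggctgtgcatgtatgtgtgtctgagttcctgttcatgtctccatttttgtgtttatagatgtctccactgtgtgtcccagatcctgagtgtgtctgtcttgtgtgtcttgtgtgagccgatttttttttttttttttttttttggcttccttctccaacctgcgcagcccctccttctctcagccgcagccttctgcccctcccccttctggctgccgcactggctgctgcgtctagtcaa
The Oprd1 window held 43 CG dinucleotides, 4 GC boxes and 1 E-box, at 79.33% G and C, whereas the median window of 32851 held 7 CG dinucleotides. The Tacr1 window held 7, the Tacr3 window 8 and the Oprl1 window shown 5 CG dinucleotides. Oprl1 has 3 start windows in the RefSeq table, and the other two held 2 CG dinucleotides each and none of the motifs. Tacr1 and Tacr3 each held 1 TGACG match, and Oprd1 and Oprl1 held 0. Of all windows, 20.81% held TGACG, 35.66% GGGCGG and 7.15% CACGTG. The full element TGACGTCA (1.79% of windows) and the Egr1 letters GCGTGGGCG (0.6119%) were also searched, of which the full element holds TGACG on both strands, and neither was in these windows. A match is only a run of letters, and its absence from a window says nothing about a factor.

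Among the opioid receptor genes, kappa and delta receptor RNA made up a smaller part of the total in R6/2 libraries, and nociceptin receptor RNA a larger part. The 4 genes together summed to 21.4, 20.7, 19.7, 18.3 and 23.3 FPKM in R6/2, against 37.0, 30.4, 41.3, 41.0 and 39.1 FPKM in control, a mean of 20.7 ± 1.87 against 37.8 ± 4.45 FPKM with no overlap. As a share of that sum, Oprk1 made up 16.6 ± 4.17% in R6/2 and 34.1 ± 4.64% in control, and Oprd1 10.01 ± 1.32% in R6/2 and 22.04 ± 5.61% in control. Oprl1 made up 24.9 ± 6.92% in R6/2 and 8.19 ± 2.05% in control. These 3 shares did not overlap between the groups, and being ratios within a library they do not depend on how libraries are scaled. The share of Oprm1 was 48.5 ± 7.43% in R6/2 and 35.6 ± 7.56% in control, and overlapped. The shares are descriptions of the same values and were not tested again.

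**Figure D2:**
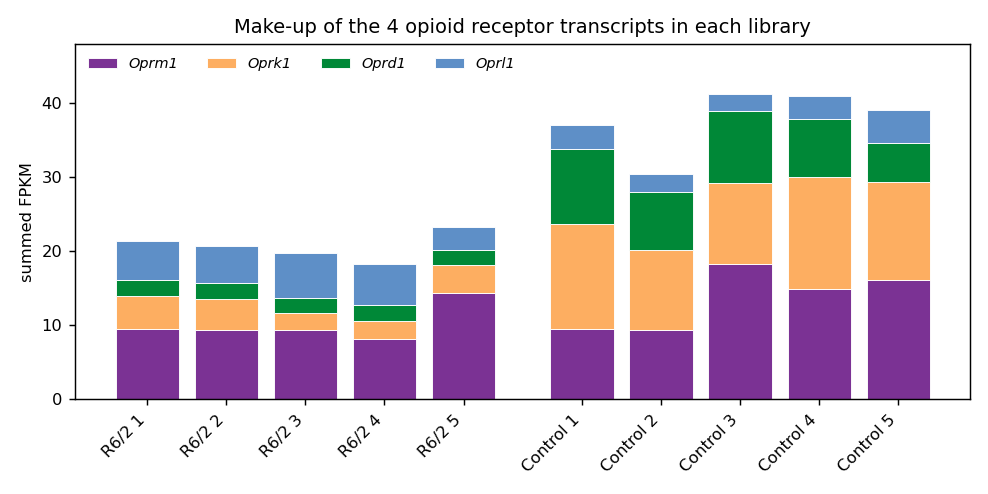
FPKM of Oprm1, Oprk1, Oprd1 and Oprl1 stacked to their sum in each library (vertical axis, summed FPKM), R6/2 libraries left and control libraries right. The sums lie between 18.3 and 23.3 FPKM in R6/2 and between 30.4 and 41.3 FPKM in control, and the Oprk1 and Oprd1 segments are shorter in every R6/2 library than in any control.

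The order of the levels differed accordingly. In R6/2 the order by mean was Oprm1, Oprl1, Oprk1, Oprd1, Tacr1, Tacr3. In that order Oprl1 and Oprk1 overlapped, as did Oprd1 and Tacr1, each with the higher one ahead in 4 of 5 libraries, whereas the other neighbours did not overlap. In control the order was Oprm1, Oprk1, Oprd1, Tacr1, Oprl1, Tacr3. Oprm1 and Oprk1 could not be ranked there, since Oprm1 was higher in 2 of 5 libraries, and Oprd1 and Tacr1 overlapped. Oprl1 was the second highest of the 6 in R6/2 libraries 1 to 4 and the third in R6/2 5, whereas it was the fifth in all 5 controls. The log2 ratio of Oprk1 to Oprl1 lay between -1.38 and 0.25 in R6/2 and between 1.58 and 2.25 in control. The log2 ratio of Oprd1 to Oprk1 overlapped, with means of -0.70 in R6/2 and -0.66 in control.

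The precursors of the peptides that these receptors bind were measured in the same libraries. Of the 7 precursor genes 4 averaged 1 FPKM or more, and 3 of them fell, with a median log2 change of -1.72 over the 4, against 0.001 over all tested genes. Among the genes that averaged 0.1 FPKM or more, all 7 were tested and 3 fell, with a median of -0.82. Tac2, which was tested but not called, reached 1 FPKM only through the controls (means 0.332 FPKM in R6/2 and 1.86 FPKM in control). Penk, the enkephalin precursor, stood at 84.7, 67.3, 46.2, 80.9 and 78.5 FPKM in R6/2, against 824, 669, 804, 728 and 761 FPKM in control, a log2 change of -3.41 (limma adjusted p = 4.1e-06). Pdyn, the dynorphin precursor, stood at 5.47, 1.64, 1.98, 5.42 and 5.97 FPKM in R6/2, against 26.9, 21.2, 31.9, 27.3 and 20.4 FPKM in control, a log2 change of -2.48 (limma adjusted p = 0.000542). Tac1, the substance P precursor, stood at 91.8, 77.1, 63.0, 72.1 and 86.0 FPKM in R6/2, against 157, 117, 183, 170 and 135 FPKM in control, a log2 change of -0.95 (limma adjusted p = 0.0018). None of these 3 genes overlapped between the groups. With the cortical signal described below in the model, 2 of the 4 tested precursor genes fell.

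The other precursors were scarce in the striatal RNA. Tac2, which encodes neurokinin B, was listed at 0 in R6/2 1, R6/2 5 and control 2 and reached 0.811 FPKM in R6/2 and 4.92 FPKM in control, with no call (log2 change -0.82, limma adjusted p = 0.324). Pnoc, the nociceptin precursor, averaged 0.300 ± 0.201 FPKM in R6/2 and 0.104 ± 0.0909 FPKM in control, under the level of 1 FPKM. Tested among the genes that averaged 0.1 FPKM or more, it was not called (log2 change 0.23, limma adjusted p = 0.304). Pomc, the precursor of beta-endorphin, was listed at 0 in R6/2 2 and 3 and in control 2 and 3, and reached 1.44 FPKM in R6/2 and 1.02 FPKM in control. Tac4, which encodes hemokinin, was above 0 in all 5 R6/2 libraries, at up to 0.984 FPKM, and in control 1 alone, at 0.335 FPKM. In the same test as Pnoc, neither Pomc (log2 change 0.01, limma adjusted p = 0.990) nor Tac4 (0.42, limma adjusted p = 0.192) was called.

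Set against its peptide precursor in the same library, the receptor RNA differed between the enkephalin, dynorphin and substance P systems. The log2 ratio of Oprd1 to Penk was -5.09 ± 0.325 in R6/2 and -6.56 ± 0.337 in control, and that of Oprm1 to Penk was -2.82 ± 0.439 in R6/2 and -5.85 ± 0.429 in control, without overlap in either case. Both mu and delta receptor RNA were therefore higher relative to enkephalin precursor RNA in R6/2, although neither gene had a higher mean. The log2 ratio of Oprk1 to Pdyn overlapped, with means of -0.09 in R6/2 and -0.99 in control. The log2 ratio of Tacr1 to Tac1 was -5.71 ± 0.537 in R6/2 and -4.75 ± 0.279 in control, and overlapped. These ratios were not tested.

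Of the peptidases known to cut enkephalins or tachykinins, 10 were tested, of which 2 fell and 1 rose (median log2 change -0.08). Mme, which encodes neprilysin, a main enkephalin-cleaving enzyme, averaged 38.6 ± 3.72 FPKM in R6/2 and 88.2 ± 18.2 FPKM in control (log2 change -1.15, limma adjusted p = 0.000464). Nln, the gene of neurolysin, averaged 1.53 ± 0.345 FPKM in R6/2 and 2.45 ± 0.276 FPKM in control (log2 change -0.45, limma adjusted p = 0.0414). Ece2, an endothelin-converting enzyme gene, averaged 8.07 ± 1.33 FPKM in R6/2 and 4.95 ± 1.15 FPKM in control (log2 change 0.62, limma adjusted p = 0.0353). With the cortical signal described below in the model 1 fell and 0 rose. Leaving out R6/2 1, 3 or 4 or any 1 of controls 1 to 4 also left 0 that rose. Only 1 fell without R6/2 1, 3 or 5 or any 1 of controls 1 to 4, and after quantile normalization or rescaling. With replicate numbers as a block, 2 fell and 0 rose. Among the genes that averaged 0.1 FPKM or more, neither Nln nor Ece2 passed (limma adjusted p = 0.0564 and 0.0518).

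Downstream of the receptors, the genes of the signalling machinery moved in both directions. Among the alpha subunits of Gi/o and Gq/11 proteins, 1 of 7 tested genes rose and 0 fell (median log2 change 0.11): Gnai1, an inhibitory subunit, averaged 91.5 ± 10.3 FPKM in R6/2 and 66.2 ± 11.8 FPKM in control (log2 change 0.47, limma adjusted p = 0.0316). Gnao1, the most abundant, changed by -0.29 on the log2 scale without passing (limma adjusted p = 0.0749), and Gnaz likewise by 0.33 (limma adjusted p = 0.0754). Of 7 receptor kinase and arrestin genes, which switch off activated receptors, 2 rose and 0 fell (median 0.44). Grk6 averaged 4.56 ± 0.358 FPKM in R6/2 and 3.11 ± 0.170 FPKM in control (log2 change 0.44, limma adjusted p = 0.00454). Grk2 averaged 10.7 ± 2.68 FPKM in R6/2 and 5.54 ± 1.14 FPKM in control (log2 change 0.82, limma adjusted p = 0.0182). Grk3 had the same log2 change as Grk6, 0.44, but with a limma adjusted p of 0.177. With the cortical signal described below in the model, 0 genes of either list were called (medians 0.08 and 0.18). The G protein list also had 0 calls without R6/2 2, R6/2 3, control 1, control 2 or control 3.

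The RGS proteins, which shorten G protein signals, were the signalling list with the most calls. Of 6 genes of this kind known to act on opioid receptor signalling, 4 fell and 1 rose (median log2 change -1.36). Rgs9, whose product is enriched in striatum, averaged 20.7 ± 5.84 FPKM in R6/2 and 162 ± 25.4 FPKM in control (log2 change -2.94). Rgs4 averaged 49.0 ± 7.40 FPKM in R6/2 and 252 ± 43.1 FPKM in control (log2 change -2.34). Rgs14 and Rgs20 had log2 changes of -1.43 and -1.28, with limma adjusted p-values of 0.000351 and 0.00791. Rgs19 averaged 38.3 ± 6.24 FPKM in R6/2 and 21.1 ± 5.09 FPKM in control (log2 change 0.85, limma adjusted p = 0.00921). In the model with the cortical signal, 3 genes of this list fell and 0 rose.

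Among 8 tested effectors of Gi/o-coupled receptors, 1 fell and 2 rose (median -0.03). The gene that fell was Adcy5, the main striatal adenylyl cyclase, at 18.3 ± 3.65 FPKM in R6/2 and 87.3 ± 12.8 FPKM in control (log2 change -2.20, limma adjusted p = 3.06e-05). The genes that rose encode subunits of the inwardly rectifying potassium channels that opioid receptors open, though not every such gene rose. Kcnj3 averaged 17.9 ± 3.62 FPKM in R6/2 and 8.40 ± 2.12 FPKM in control (log2 change 1.02, limma adjusted p = 0.00512), and Kcnj6 5.75 ± 0.653 FPKM in R6/2 and 3.18 ± 1.07 FPKM in control (log2 change 0.73, limma adjusted p = 0.0243). Kcnj9, of the same channels, stood at a log2 change of -0.002 (limma adjusted p = 0.998). Kcnj5, under the level of 1 FPKM, averaged 0.251 FPKM in R6/2 and 0.409 FPKM in control. Of 5 tested effectors of Gq/11-coupled receptors 2 fell (median 0.05). Itpr1, a calcium release channel, stood at a log2 change of -1.55 (limma adjusted p = 0.000155) and Plcb1, a phospholipase C, one of -1.06 (limma adjusted p = 0.000468), whereas Plcb4 had one of 0.14 (limma adjusted p = 0.533). With the cortical signal in the model 1 gene of the Gi/o list rose and 2 fell, and 1 rose without any 1 of R6/2 1 to 4, control 1 or control 3.

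**Figure D3:**
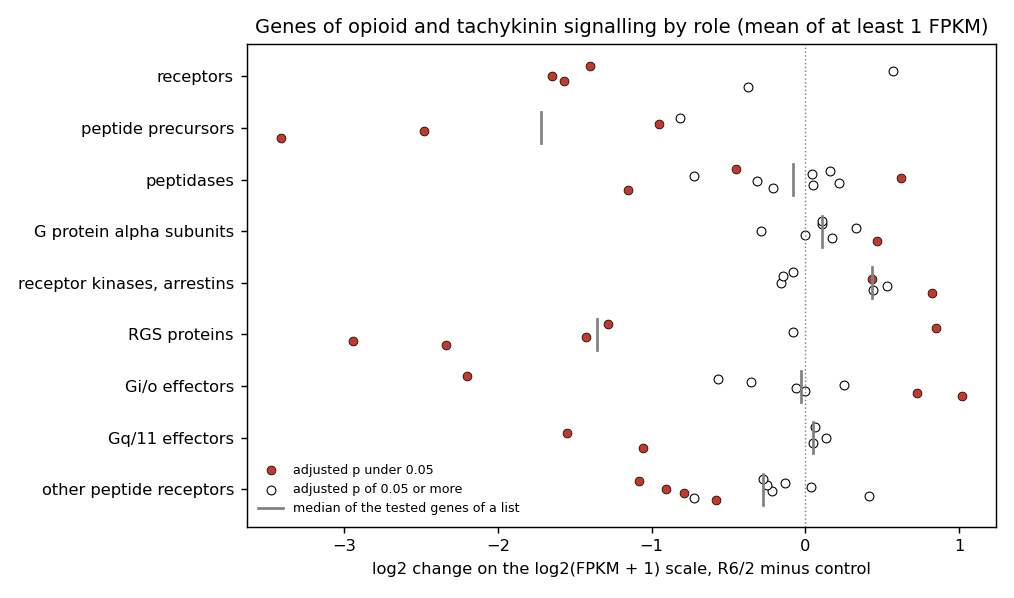
Log2 change (R6/2 minus control, log2(FPKM + 1) scale) of each tested receptor and of each tested gene in lists ordered by role (points, filled where the adjusted p is under 0.05), with the median of each list other than the receptors as a bar. Peptide precursors and RGS proteins have the lowest medians among the genes shown, -1.72 and -1.36, and the 3 receptors that fell lie between -1.65 and -1.40. The order of these 2 lists depends on the filter: among genes that averaged 0.1 FPKM or more their medians are -0.82 and -1.36.

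For comparison, 38 receptor genes for other neuropeptides were in the table, and 11 of them averaged 1 FPKM or more. Of these 4 fell and 0 rose (median log2 change -0.28). After quantile normalization, after rescaling or with the cortical signal described below 3 fell, and with replicate numbers as a block 2 fell. Among the genes that averaged 0.1 FPKM or more, 3 of 31 fell. Mchr1, the receptor for melanin-concentrating hormone, averaged 2.37 ± 0.475 FPKM in R6/2 and 6.19 ± 1.23 FPKM in control (log2 change -1.09, limma adjusted p = 0.00123). Ntsr2, a neurotensin receptor, stood at a log2 change of -0.91 (limma adjusted p = 0.00134), Npy2r, a neuropeptide Y receptor, one of -0.79 (limma adjusted p = 0.0228) and Sstr2, a somatostatin receptor, one of -0.58 (limma adjusted p = 0.0442). Each of the 3 receptors of the opioid and tachykinin families that fell had a larger fall on the log2 scale than any of these 4, a difference that was not tested.

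Markers of the cells in which these receptors are known also changed. All 20 spiny neuron markers were tested and all 20 fell (median log2 change -2.10). Their summed level was 527 to 748 FPKM in R6/2 and 2724 to 3438 FPKM in control. Penk, Rgs9, Rgs14 and Adcy5 stand both in that list and in those above. Among the steepest were Scn4b, a sodium channel subunit (log2 change -3.78), Pde10a, a phosphodiesterase (-2.92), and Drd2, the D2 dopamine receptor (-2.46).

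Genes of both striatal compartments fell in part. Of 10 genes enriched in striosomes, where mu receptors are dense, 5 fell and 0 rose (median log2 change -0.51, summed level 47.8 to 62.7 FPKM in R6/2 and 79.8 to 95.2 FPKM in control). They were Sema5b (-0.95), Nnat (-0.82), Asic4 (-0.69), Kremen1 (-0.60) and Spon1 (-0.37), with limma adjusted p-values of 0.00461 to 0.0463. Of 5 genes enriched in the surrounding matrix, 4 fell and 0 rose (median log2 change -0.73, summed level 55.7 to 79.6 FPKM in R6/2 and 103 to 133 FPKM in control). They were Rasgrp2 (-1.58), Id4 (-1.51), Calb1 (-0.73) and Zfhx3 (-0.59). Once the cortical signal was added, 2 striosome genes and 1 matrix gene fell. With replicate numbers as a block 2 striosome genes and 3 matrix genes fell, and after rescaling 3 and 3. Leaving out any 1 library gave 4 striosome genes that fell, and 3 matrix genes except without R6/2 4, where 4 fell. The part of these cells in the receptor values was not tested.

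Of the cholinergic interneuron markers, 4 of 6 were tested and all 4 fell (median log2 change -1.16). The filter takes the mean over both groups, so a scarce gene can enter through the controls alone, as Chat did. Among the genes that averaged 0.1 FPKM or more, all 6 were tested and 5 fell (median log2 change -0.89). Slc5a7, the choline transporter, averaged 1.11 ± 0.108 FPKM in R6/2 and 4.40 ± 0.377 FPKM in control (log2 change -1.36, limma adjusted p = 2.27e-05). Chat, the acetylcholine-synthesising enzyme, averaged 0.203 ± 0.133 FPKM in R6/2 and 2.21 ± 0.669 FPKM in control (log2 change -1.40, limma adjusted p = 0.00142). Slc17a8, a glutamate transporter of these cells, and Lhx8, a transcription factor of their lineage, had log2 changes of -0.96 and -0.82. The summed level of the list was 2.32 to 3.43 FPKM in R6/2 and 9.94 to 14.6 FPKM in control. Tacr1 fell in the same libraries, as did all 20 spiny neuron markers, and no link between them was tested. Adding the cortical signal left 2 of the 4 cholinergic markers that fell.

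Of the markers of interneurons that make somatostatin, neuropeptide Y and nitric oxide, 3 of 4 were tested and all 3 fell (median log2 change -1.04). Npy averaged 12.4 ± 2.63 FPKM in R6/2 and 30.6 ± 3.49 FPKM in control (log2 change -1.25, limma adjusted p = 0.000308). Nos1, the neuronal nitric oxide synthase, averaged 1.92 ± 0.389 FPKM in R6/2 and 5.02 ± 1.05 FPKM in control (log2 change -1.04, limma adjusted p = 0.00114). Sst averaged 207 ± 15.4 FPKM in R6/2 and 377 ± 97.4 FPKM in control (log2 change -0.83, limma adjusted p = 0.00674). The summed level of the list was 204 to 243 FPKM in R6/2 and 313 to 572 FPKM in control. Of 5 tested markers of parvalbumin and Pthlh interneurons 2 fell, Kit (-0.79, limma adjusted p = 0.0252) and Cox6a2 (-0.77, limma adjusted p = 0.0242), and Kcnc1 stood at -0.30 (limma adjusted p = 0.218). Of that list 0 fell without R6/2 1, without R6/2 4 or with the cortical signal in the model. Among the interneuron markers under the test level, Slc18a3 was listed at 0 in R6/2 2, 4 and 5, Chodl in R6/2 5 and Pthlh in R6/2 4, and no marker of these lists was at 0 in a control. The part of these cells in the receptor values was not tested.

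**Figure D4:**
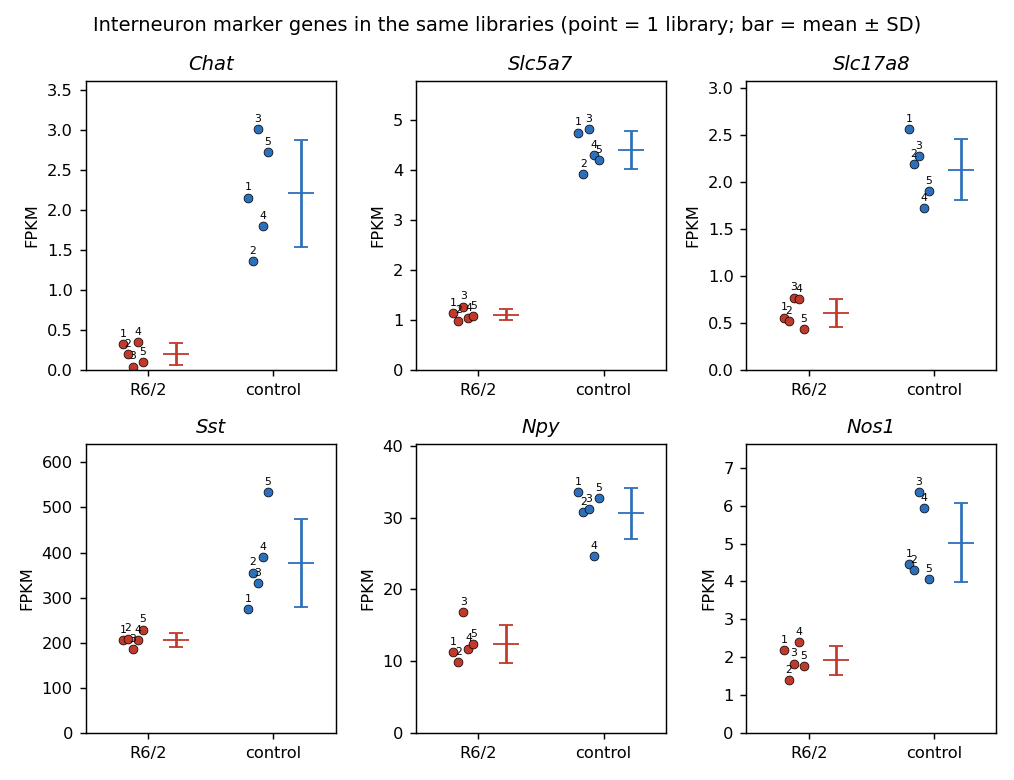
FPKM of 3 cholinergic interneuron markers (Chat, Slc5a7, Slc17a8) and of Sst, Npy and Nos1 in each library (points, numbered by replicate) with mean ± SD of 5 libraries, R6/2 left and control right. No gene of the 6 overlaps between the groups.

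Markers of cells from outside the striatum bear on the tissue label. Of 7 cortical glutamatergic markers 6 were tested, of which 1 rose and 0 fell (median log2 change 0.69, summed level 55.0 to 100.2 FPKM in R6/2 and 25.5 to 55.5 FPKM in control). Slc30a3, a vesicular zinc transporter, and Neurod6, a transcription factor, did not pass, with log2 changes of 1.18 and 0.62 (limma adjusted p = 0.0541 and 0.0657). A cortical signal, the mean of the 6 tested markers on the log2 scale after each was standardised over the 10 libraries, was higher in R6/2 (exact permutation test, two-sided, p = 0.0238, adjusted over 5 library measures 0.0397). With that signal as a term in the model, Oprd1, Oprk1 and Tacr1 were still lower (limma adjusted p = 0.00503, 0.00933 and 0.0111), with log2 changes of -1.32, -1.65 and -1.10, while Oprl1 stood at 0.41 (limma adjusted p = 0.464). Among other lists, 1 of 6 claustral genes (Synpr, -1.06), 1 of 3 dopamine neuron genes (Aldh1a1, -0.61), 2 of 7 astrocyte genes (Slc1a2, -0.90, and Gja1, -0.79), 1 of 6 microglial genes (P2ry12, -0.52) and 4 of 7 myelin genes (among them Ugt8a, -1.09, Mobp, -1.05, and Mbp, -0.96) fell. The thalamic marker Slc17a6 (0.81) rose, no vascular gene was called (0 of 6), and Oxt and Dbx1 of the hypothalamic and septal list were at 0 in all libraries. Over all tested genes 9.11% fell and 5.0% rose, so 1 call in such a short list is not a result about its cells. The cortical list had 0 calls without R6/2 2, R6/2 3, control 1 or control 3, and all 7 myelin genes fell without R6/2 5. Protein-coding genes outside the mitochondrial genome held 193203 to 202906 FPKM in R6/2 libraries and 211209 to 219426 FPKM in control libraries (exact permutation test, two-sided, p = 0.00794, the smallest that 5 against 5 allows, adjusted over 5 library measures 0.0198). The part of these differences in the receptor values was not tested.

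The genes whose values ran most like each receptor over the 10 libraries were sought among 11408 protein-coding genes, as Pearson correlations of log2(FPKM + 1). The 10 points share 2 groups, so a correlation is given also after subtracting the group means. Oprd1 was followed most closely by Gpr139 (r = 0.995 and 0.929 after subtraction), Tomm70a (0.995 and 0.925) and Hipk4 (0.995 and 0.915). Tacr1 was followed by Rasd2 (0.995 and 0.950), Kcnj2 (0.988 and 0.862) and Ido1 (0.987 and 0.837). Oprk1 was followed by Slc39a2 (0.979 and 0.720), Dock4 (0.978 and 0.711) and Cdh9 (0.974 and 0.692).

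Of the receptors that were not called, Oprm1 ran with Ldah (0.931 and 0.906), Tenm2 (0.907 and 0.873) and Zcchc10 (0.903 and 0.884), and Oprl1 with Sumf1 (0.972 and 0.956), Katnal1 (0.943 and 0.873) and Dnase2a (0.930 and 0.895). None of these 6 was called, with limma adjusted p-values of 0.0754 to 0.422, whereas the 9 genes that ran most like Oprd1, Oprk1 and Tacr1 had log2 changes of -2.88 to -0.99. The genes were picked as the best of many, so their correlations are descriptions without a test. Because they were picked over both groups together, a receptor that fell draws genes that fell. The difference in calls between these 6 and 9 genes is thus no separate result.

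**Figure D5:**
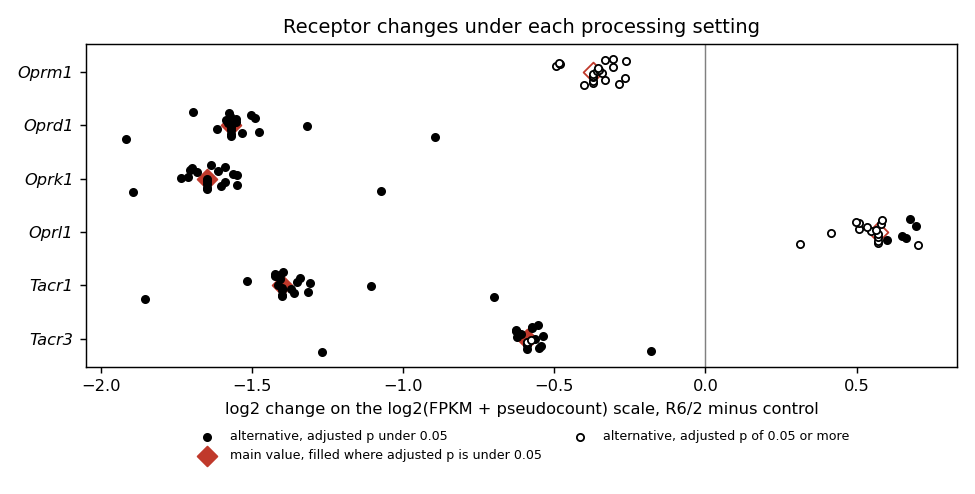
Log2 change (R6/2 minus control) of each receptor gene as reported (diamond) and under each alternative processing (points, filled where the adjusted p is under 0.05). Oprd1, Oprk1 and Tacr1 lie below 0 and are called throughout, Oprm1 is never called, and Oprl1 and Tacr3 change their call under some alternatives.

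The receptor changes depended on the settings to different degrees. The 3 genes that fell most kept their direction and their call under all 20 alternatives, with log2 changes between -1.92 and -0.70 that were smaller where more FPKM was added before taking logs. Oprm1 lay between -0.50 and -0.26 and was not called under any of the 20. Oprl1 stayed above 0, between 0.31 and 0.70, and was called under 5 of the 20. Tacr3 lay between -1.27 and -0.18 and was called under 17 of 19.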

How the data were processed

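Per the labels, striatal RNA (Qiagen lipid tissue kit) was amplified by NuGEN Ovation RNA-Seq v2 and sequenced as Nextera libraries on an Illumina HiSeq. The authors deposited FPKM values, 1 column per library. STAR 2.4.0, Cufflinks and Cuffdiff with the build GRCm38 were used, per the submitters' processing notes; no source used here gives their roles or any scaling. Symbols and positions came from GENCODE M21 (47220 of 47632 IDs matched), and 0 columns lacked a sample.

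Genes averaging 1 FPKM or more were tested with limma 3.58.1 (R 4.3.3) (R6/2 minus control, two-sided) after log2(FPKM + 1), with a Benjamini-Hochberg threshold of 0.05. Residual degrees of freedom were 8, and prior ones 1.77 in the median. Fold changes on this scale understate those of low genes. Single values of the libraries were set against each other by exact permutation (scipy 1.17.1).

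In 4272 low genes with 1 transcript, 74.6% of genes had whole fragment numbers, within 0.05 fragments, in every library. This gave fragments per FPKM of 49.7% to 73.6% of that of library R6/2 1 in the others, but no absolute depth. Genes with several transcripts gave no fragment numbers, so no count test was run. Intervals cover counting error only.

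Besides the receptors, the text names every precursor, the called genes and the 3 smallest p-values of each list, overlapping genes and the 3 best correlated genes. Some genes that this rule names are not reported here. The members and lists were chosen with earlier results of these data known. Alternatives changed the pseudocount (0.1 or 5), the filter, the scaling, the model and the libraries. All genes together gave 795 higher and 1449 lower calls (64.6% lower), and 1111 and 1277 (53.5% lower) after quantile normalization. Rescaling to 1 protein-coding total, taken outside the mitochondrial genome, gave 1522 and 1136 (42.7% lower) and moved the median of all genes to 0.093.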

Additional observations from a re-analysis of the deposited data

Results flagged for a closer look

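In 11 of 152 gene groups of 5 libraries that were examined, 1 library lay far from the other 4 by Dixon's gap ratio, which chance gives in about 5% of groups, or 7.6 here. Among the receptors this was so for Oprm1, with 14.4 FPKM in R6/2 5 and 8.10 to 9.48 FPKM in the other R6/2 libraries. Library R6/2 5 was also apart for Grk3 (5.18 FPKM, others 8.46 to 9.53), Cox6a2 (2.50 FPKM, others 1.07 to 1.43), Ldah (8.27 FPKM, others 6.63 to 7.004) and Dnase2a (1.48 FPKM, others 1.90 to 2.06). It thus accounts for 5 of the 11, although Ldah and Dnase2a were named for running like Oprm1 and Oprl1. Control 5 was apart for Ece2 (2.90 FPKM, others 5.32 to 5.65) and Gnai1 (86.7 FPKM, others 56.6 to 64.4). Control 1 was apart for Zfhx3 (7.10 FPKM, others 5.34 to 5.83) and Tac4 (0.335 FPKM, others listed at 0), control 2 for Spon1 (9.50 FPKM, others 7.21 to 7.86) and control 4 for Gnaz (16.5 FPKM, others 11.4 to 12.4). No cause was tested.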

How the results depend on the processing

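Oprd1, Oprk1 and Tacr1 fell under all 20 alternatives and Oprm1 was called under none. Oprl1 passed the threshold after quantile normalization (0.60), rescaling (0.66) and array weights (0.65), and ranged over 0.50 to 0.70 when libraries were left out, with calls without R6/2 5 or control 5. Tacr3 lost its call with a replicate block (-0.59, limma adjusted p = 0.0672) and with the cortical signal (-0.58, limma adjusted p = 0.151). Calls over all genes were 1522 higher after rescaling, 370 higher with the replicate block, and 137 higher and 563 lower with the cortical signal. They ranged over 576 to 890 higher and 1193 to 1518 lower without 1 library. Replicate numbers did not pair the samples: correlations of same-numbered deviations from the group means were -0.05 to 0.05, and only R6/2 5 matched its own number best. The block changed no other receptor call. Absolute depth is unknown, and Tacr3 rests on 62 fragments in R6/2 and 155 in control. The causes were not tested.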
